A study of Mus musculus with 35 samples.

Results

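Transcripts of 7 G protein-coupled receptors that respond to metabolites or lipids, Hcar2, Gpr65, Gpr84, Gpr183, Lpar5, Lpar6 and S1pr1, were followed in microglia sorted from the midbrain, striatum and prefrontal cortex (PFC) of mice. These 7 of the 21236 genes in the counts table were selected on their levels in the brain regions of these same samples, so their values by region are a description, and counts of region calls among them are no evidence. All 7 were found in the table by gene symbol and Ensembl identifier, and each had a mean above 7 CPM (counts scaled to a common library size) in every region. The microglia came from 12 adult animals, 6 male and 6 female, of the line Tmem119-2A-CreERT2/Ai14(RCL-tdTomato)-D, all given tamoxifen, which lets a Cre recombinase driven by the microglial gene Tmem119 switch on the red reporter tdTomato. Labelled cells were sorted and sequenced separately by region, which gave 6 samples for each sex in the midbrain and striatum, 6 for the female PFC and 5 for the male PFC. Only cells that expressed Tmem119 strongly enough to recombine the reporter could enter a sample, every mouse carried the reporter and received tamoxifen, and no group without these was analysed here.

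Microglia are the resident macrophages of the brain and read the state of the tissue largely through surface receptors of this family, which signal through G protein alpha subunits to adenylyl cyclase or phospholipase C. Hcar2 binds the ketone body beta-hydroxybutyrate and niacin and couples to Gi. Gpr65 senses extracellular protons and couples mainly to Gs, and Gpr84 responds to medium-chain fatty acids and is known to rise in inflamed myeloid cells. Among the lipid receptors, Gpr183 (EBI2) binds oxysterols made by Ch25h and Cyp7b1, Lpar5 and Lpar6 bind lysophosphatidic acid (LPA), and S1pr1 binds sphingosine 1-phosphate (S1P).

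In the GRCm38 build with GENCODE M21 annotation, all 7 genes are protein coding. Hcar2 (ENSMUSG00000045502) lies at chr5:123863570-123865499 on the minus strand, Gpr65 (ENSMUSG00000021886) at chr12:98268635-98276644 on the plus strand and Gpr84 (ENSMUSG00000063234) at chr15:103308235-103310612 on the minus strand. Gpr183 (ENSMUSG00000051212) lies at chr14:121952551-121965195 on the minus strand, inside the region of Ubac2 but with 0 exon bases in common. Lpar5 (ENSMUSG00000067714) lies at chr6:125067920-125082472 on the plus strand, and S1pr1 (ENSMUSG00000045092) at chr3:115710433-115715072 on the minus strand. Lpar6 (ENSMUSG00000033446) lies at chr14:73237895-73243294 on the plus strand, inside the retinoblastoma gene Rb1 on the other strand, with which 408 of its 5400 exon bases overlap. The library kit does not mark the strand, so reads from those bases cannot be told apart. Rb1 averaged 75.9 CPM and its log2 CPM correlated with that of Lpar6 with r = 0.25 over the 35 samples. Gpr65 and Gpr84 share 511 and 681 exon bases with the antisense genes Gm47566 and Gm49482, which have no row in the table.

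The bases upstream of the start site are shown for Gpr65, whose level differed most between the midbrain and the other regions, and for Gpr183, whose level differed least between regions but differed between the sexes. They are the 250 bases before the RefSeq start site in GRCm38.p6, at chr12:98268385-98268634 on the plus strand and chr14:121965194-121965443 on the minus strand, read 5′ to 3′ along the gene, and capitals mark the core motif of the myeloid factor PU.1 (GAGGAA, or TTCCTC on the other strand).
Gpr65: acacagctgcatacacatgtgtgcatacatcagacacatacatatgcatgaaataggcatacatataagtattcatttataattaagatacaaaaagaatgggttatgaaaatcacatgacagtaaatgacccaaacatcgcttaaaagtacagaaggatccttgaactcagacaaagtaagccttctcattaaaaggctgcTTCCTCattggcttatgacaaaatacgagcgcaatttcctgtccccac
Gpr183: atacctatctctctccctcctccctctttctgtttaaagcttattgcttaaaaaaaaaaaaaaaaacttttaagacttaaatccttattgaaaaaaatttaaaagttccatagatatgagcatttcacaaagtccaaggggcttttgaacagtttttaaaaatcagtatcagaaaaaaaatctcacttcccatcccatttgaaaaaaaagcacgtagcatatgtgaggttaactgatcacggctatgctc
The Gpr65 window is 36.8% GC and holds 1 copy of that core, on the other strand, and the Gpr183 window is 32% GC and holds 0. Of 32851 promoter windows of 250 bases, 23.3% held GAGGAA on either strand. Neither window held the AP-1 motif TGANTCA, the cAMP response core TGACG or the E-box CACGTG, which occurred on either strand in 6.75%, 17.8% and 6.02% of all windows. Promoters of 5 of the 7 members were matched, and the windows of Gpr84, Lpar5 and Lpar6 held 0 copies of the 4 motifs.

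Total counts ran from 37680501 to 54131421 per sample, with a median of 47378508, so that 3 counts, below which a value was not told from 0, corresponded to between 0.0561 and 0.0789 CPM. This floor covers counting error only. For 1 library of mouse 3, the column name says PFC and the label that carries its library number says striatum. It was taken as striatum. The receptors' striatum differences from the main fit between regions are given also without it. Other striatum values include it unless stated. Tmem119 averaged 3267 CPM and the purinergic receptor P2ry12 7169 CPM, as the label of microglia implies. The 14 microglial markers summed to between 48074 and 59916 CPM per sample, against 214 to 507 CPM for 10 astrocyte markers, 232 to 869 CPM for 12 oligodendrocyte markers, 11.7 to 92.3 CPM for 9 endothelial markers and 7.11 to 51.4 CPM for 15 neuronal markers. Of 12 lymphocyte markers, 8 were in the table and summed to 31.5 to 55.5 CPM, nearly all from Cd79b at a mean of 40.2 CPM. The T-cell genes Cd3e, Cd3d and Cd3g had no row, and Trbc2 had at most 3 counts in 27 of 35 samples. For monocytes and neutrophils, 7 of 10 markers were in the table and summed to 1.11 to 44.5 CPM. Fewer cells of a type and less RNA per cell cannot be told apart in such bulk samples.

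Per kilobase of exon, so that levels of different genes can be set side by side, the 7 receptors spanned a wide range. Gpr84 was the most abundant at 456 CPM per kb averaged over all samples, followed by Gpr183 at 149 and S1pr1 at 45.9 CPM per kb. Lpar5 at 20.7, Hcar2 at 19.6 and Lpar6 at 16.5 CPM per kb lay close together, and Gpr65 was lowest at 7.96 CPM per kb. The order of the middle genes changed with region, since Hcar2 stood at 35.5 CPM per kb in the midbrain and 9.32 in the PFC, while S1pr1 stood at 34.6 in the midbrain and 55.2 in the PFC. By mean CPM without regard to length, Gpr84 ranked 151 and Gpr183 ranked 297 among all 21236 genes.

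Hcar2 and Gpr65 were higher in the midbrain than in either other region in every mouse. S1pr1 was lower in the midbrain than in either other region in every mouse. Gpr84, Gpr183 and Lpar5 had ranges that overlapped between all 3 regions, and Lpar6 had overlapping ranges with most of its spread between mice.

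**Figure D1:**
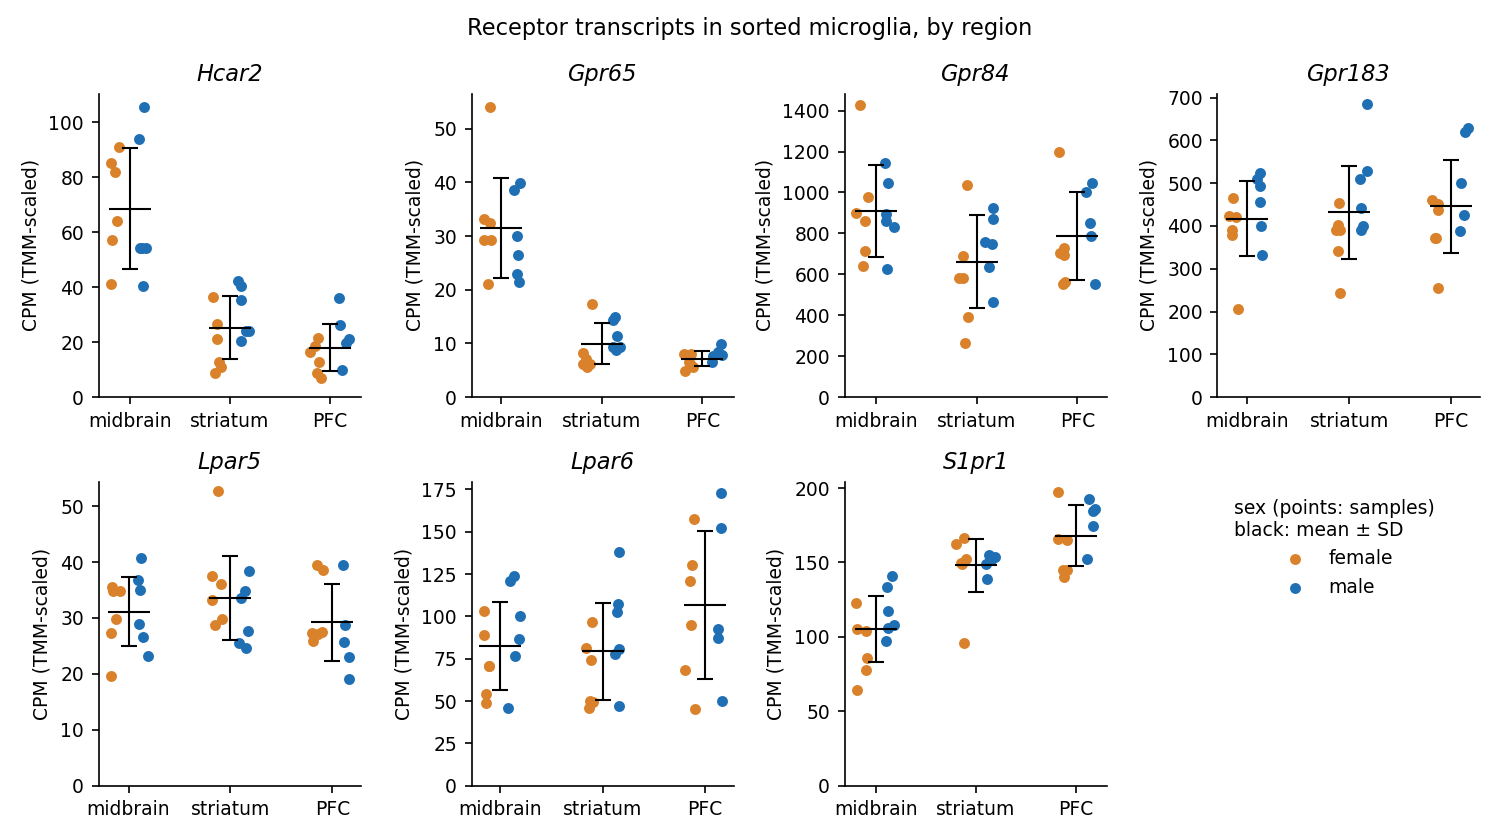
CPM (y axis, from 0) of each receptor transcript in the midbrain, striatum and PFC (x axis), with 1 point per sample coloured by sex and the mean ± SD in black. Gpr65 in the midbrain, at 21.05 CPM or more, lies above every striatum and PFC sample, and Hcar2 in the midbrain lies above every PFC sample, while the regions overlap for Gpr84, Gpr183, Lpar5 and Lpar6.

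Of the metabolite receptors, Gpr65 showed the widest separation. Its lowest, median and highest levels were 21.05, 29.7 and 54.1 CPM in the midbrain, 5.66, 9.08 and 17.3 CPM in the striatum, and 4.90, 7.65 and 9.88 CPM in the PFC. Every midbrain sample was above every sample of the other regions, and the striatum and PFC overlapped. In the same order the means were 31.5 ± 9.33, 9.92 ± 3.82 and 7.20 ± 1.46 CPM (SD). Here and in the following, n is 12 for the midbrain, 12 for the striatum and 11 for the PFC, and SD is over samples. The fitted log2 fold change was -2.14 (SE 0.18) for PFC over midbrain and -1.69 (SE 0.17) for striatum over midbrain, and Gpr65 was lower than in the midbrain in 11 of 11 and 12 of 12 mice. Striatum over PFC gave 0.45 (SE 0.17), higher in the striatum in 9 of 11 mice. Without the striatum sample of mouse 3, which stood at 14.4 CPM, the last 2 values were -1.73 and 0.40.

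Hcar2 followed the same order with a broader spread. Its lowest, median and highest levels were 40.3, 60.7 and 105 CPM in the midbrain, 8.83, 24.0 and 42.2 CPM in the striatum, and 6.82, 18.5 and 36.1 CPM in the PFC. No PFC sample reached the midbrain range, and 10 of 12 midbrain samples were above every striatum sample. Means in this order were 68.6 ± 21.8, 25.3 ± 11.4 and 17.99 ± 8.52 CPM. Hcar2 changed by a log2 fold change of -1.96 (SE 0.25) from midbrain to PFC and -1.49 (SE 0.24) from midbrain to striatum, the latter -1.47 without the striatum sample of mouse 3. It was lower than in the midbrain in 11 of 11 mice for the PFC and 12 of 12 for the striatum, with within-mouse log2 differences from -2.72 to -0.58 and from -2.83 to -0.36. Between striatum and PFC the log2 fold change was 0.47 (SE 0.24) and the mice were divided, 8 higher and 3 lower in the striatum. Without the sample of mouse 3 it was 0.50.

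Gpr84 was expressed at high levels everywhere, with 624, 877 and 1425 CPM as lowest, median and highest in the midbrain, 262, 663 and 1039 CPM in the striatum, and 552, 730.5 and 1198 CPM in the PFC. The 3 ranges overlapped. Log2 fold changes were -0.20 (SE 0.17) for PFC over midbrain, -0.47 (SE 0.17) for striatum over midbrain and -0.26 (SE 0.17) for striatum over PFC. The midbrain was higher than the PFC in 10 of 11 mice and higher than the striatum in 10 of 12. Without the striatum sample of mouse 3 the striatum differences were -0.42 and -0.22.

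Among the lipid receptors, S1pr1 ran opposite to Gpr65 and Hcar2. Its lowest, median and highest levels were 64.6, 105 and 141 CPM in the midbrain, 96.1, 152 and 166 CPM in the striatum, and 140.1, 166 and 197 CPM in the PFC. Of 12 midbrain samples, 11 were below every PFC sample, while midbrain and striatum overlapped more. Means were 105 ± 22.2, 148 ± 17.8 and 168 ± 20.6 CPM. The log2 fold change was 0.69 (SE 0.090) for PFC over midbrain and 0.50 (SE 0.088) for striatum over midbrain, with higher levels than in the midbrain in 11 of 11 and 12 of 12 mice, and -0.19 (SE 0.089) for striatum over PFC. The striatum mean was 147 ± 18.5 CPM and the striatum differences 0.50 and -0.18 without the sample of mouse 3. S1pr1 is also known from endothelial cells and astrocytes. From midbrain to striatum to PFC the astrocyte marker sum was 243 ± 19.04, 360.2 ± 60.2 and 351 ± 78.2 CPM, and the endothelial sum 34.0 ± 15.7, 49.4 ± 23.1 and 33.5 ± 8.36 CPM. Over all samples, most of the astrocyte sum was Slc1a3 at 209 CPM and most of the endothelial sum Pecam1 at 22.3 CPM. Of the endothelial genes, Cldn5, Flt1, Ly6c1, Itm2a and Slco1a4 were lowest in the PFC, and Pecam1, Cdh5, Tek and Kdr in the midbrain. An index of each list, the mean log2 CPM of its genes, was also added as a covariate. The S1pr1 differences were then 0.68 (SE 0.090) for PFC and 0.53 (SE 0.095) for striatum over midbrain. The r of log2 S1pr1 with the astrocyte sum over the 35 samples was 0.60 as measured and 0.11 on values centred on the mean of their region and sex (within groups). Marker levels differed between the regions themselves, and the part of RNA from these cells in the S1pr1 differences was not tested.

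Gpr183 differed little between regions. The lowest, median and highest levels were 206, 422 and 525 CPM in the midbrain, 243, 401 and 686 CPM in the striatum, and 255, 438 and 629 CPM in the PFC, and the ranges overlapped almost fully. The highest of all 35 values, 686 CPM, was in the striatum sample of mouse 3, without which the striatum mean was 409 ± 78.1 CPM (SD, n = 11) in place of 432 ± 109 (n = 12). Log2 fold changes were 0.11 (SE 0.12) for PFC over midbrain and 0.040 (SE 0.12) for striatum over midbrain. The latter was -0.017 without that sample and -0.0082 without mouse 12. Its sign was therefore not settled, and all these values were small beside the SE.

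The LPA receptors had their own patterns. Lpar5 stood at 31.1 ± 6.21, 33.6 ± 7.56 and 29.3 ± 6.89 CPM in midbrain, striatum and PFC, with all 35 samples between 19.1 and 52.6 CPM. Its 3 fitted log2 differences lay between -0.10 and 0.20, with SE of 0.12 to 0.13, and without the striatum sample of mouse 3 the striatum mean was 33.4 ± 7.91 CPM and the striatum differences 0.091 and 0.19. Lpar6 had lowest, median and highest levels of 45.6, 81.6 and 124 CPM in the midbrain, 46.1, 79.1 and 138 CPM in the striatum, and 45.4, 94.9 and 173 CPM in the PFC. The regions began at nearly the same level and the PFC reached highest. The 138 CPM were in the striatum sample of mouse 3, without which the highest striatum value was 107 and the mean 73.9 ± 22.9 in place of 79.3 ± 28.6 CPM. The log2 fold change of Lpar6 was 0.40 (SE 0.21) for PFC over midbrain, higher in 9 of 11 mice, and -0.46 (SE 0.21) for striatum over PFC, lower in the striatum in 10 of 11 mice and -0.53 without that sample. Blocking on the mouse gave 0.39 (SE 0.084) and -0.47 (SE 0.085), and Lpar6 was called for both pairs with the block and for neither without it.

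**Figure D2:**
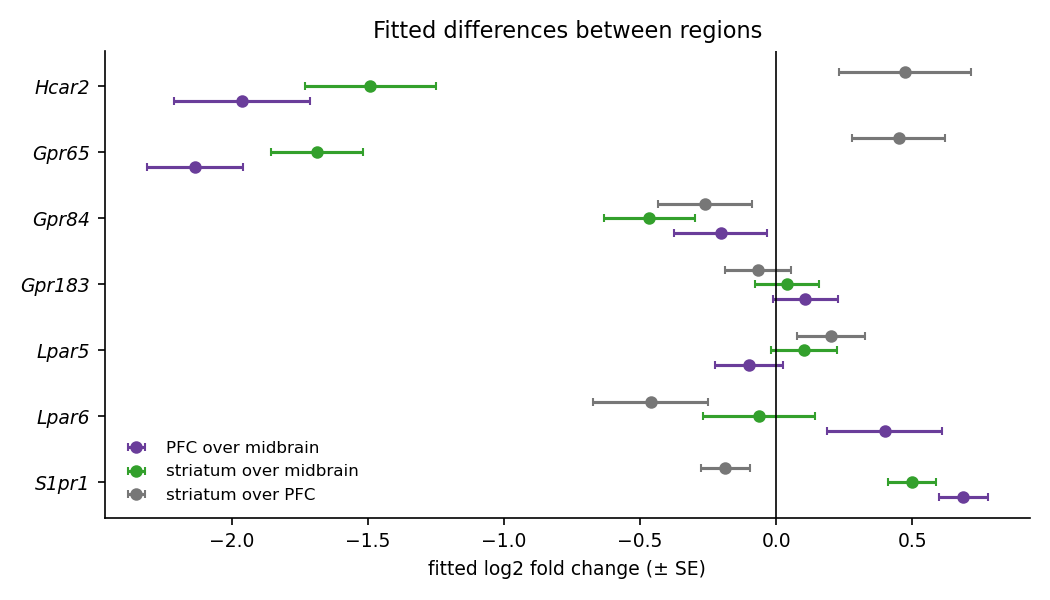
Fitted log2 fold change (x axis, points, with bars of ± SE) of each receptor (y axis) for the 3 pairs of regions. Both comparisons with the midbrain put Hcar2 and Gpr65 below -1.4 and S1pr1 at 0.50 or above, and the other genes lie between -0.47 and 0.40.

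Region values chose the members, so the following counts of calls describe the all-gene fit and support nothing. Its cutoff for a region effect (edgeR quasi-likelihood test, Benjamini-Hochberg adjusted p under 0.05 over all genes) was met by 3 of 7, Hcar2, Gpr65 and S1pr1, beside 8.89% of all genes, and for 5 of 7 with the mouse as a block. Pairs of regions were called within that effect at p under 0.05 and a fold change over 1.2. For PFC over midbrain 1 member was called higher, beside 2.75% of all genes, and 2 lower, beside 3.24%, and the block added Lpar6 as higher. For striatum over midbrain 1 was higher, beside 3.5%, and 2 lower, beside 2.98%. For striatum over PFC 1 was higher, beside 2.31%, and 0 lower, beside 0.833%. With the block the last pair called 3 members, of which Hcar2 and Gpr65 were higher in striatum and Lpar6 in PFC. Gpr84 was the other member whose striatum over midbrain difference was called under the block, at -0.49 (SE 0.14). The median log2 fold change of the 7 was -0.10 for PFC over midbrain and -0.063 for striatum over midbrain, where the medians of all genes were 0.011 and 0.012.

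Levels of other cell types were set beside the midbrain values. The 9 measured markers of border-associated macrophages had sums of 107 ± 39.1, 140 ± 27.98 and 109 ± 14.4 CPM in midbrain, striatum and PFC, mostly Stab1. Within that list Ms4a7 stood at 9.99 CPM in the midbrain, 0.772 in the striatum and 0.190 in the PFC, and Cd163 had at most 3 counts in 28 of 35 samples. In the same order Mrc1 stood at 4.18, 3.81 and 5.61 CPM and Stab1 at 89.1, 132 and 101 CPM, neither highest in the midbrain. The other listed genes averaged under 1 CPM. Of these, Pf4, F13a1, Clec4n, Folr2 and Cd163 were highest in the midbrain and Cbr2 in the striatum. Immediate early and heat shock genes that rise during tissue dissociation, 12 in the list, had sums of 37626 ± 6354, 34805 ± 8022 and 35774 ± 5531 CPM. Within groups, the r of this sum with a member over 35 samples was between -0.016 for Hcar2 and 0.30 for Lpar6. The part of these transcripts in the region differences was not tested.

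Sex was not used to choose the receptors, so it was tested. The edgeR fit for sex has no term for the mouse, so samples of the same mouse count as independent in it. Its SE and p-values can therefore be too small. This holds for all edgeR sex values below, also for shares of all genes and listed genes. The permutation test and counts summed per mouse take the mouse as the unit. Gpr183 was higher in males, by more than any other member relative to its error. Its lowest, median and highest levels were 333, 493 and 686 CPM in the 17 male samples and 206, 391 and 466 CPM in the 18 female samples, so that the ranges overlapped with the highest values in males. By region the male and female means were 453 ± 73.8 and 381 ± 90.9 CPM (SD, n = 6 and 6) in the midbrain, 493 ± 110.1 and 370.3 ± 71.8 (n = 6 and 6) in the striatum, and 513 ± 109.6 and 391 ± 77.3 (n = 5 and 6) in the PFC. The fitted log2 fold change of male over female was 0.35 (SE 0.098, edgeR adjusted p = 0.131 over all genes). It met the unadjusted rule (p under 0.05, fold change over 1.2) and missed the adjusted one. Taken per mouse, each level centred on its region, 4 of 6 males were above all 6 females, and the difference of the means was 0.37 (exact permutation test over 12 mice, two-sided, 1 of 7 such tests, p = 0.0260). Mice 1 to 6 alone gave 0.36 and mice 7 to 12 alone 0.39. It remained called with each mouse left out, from 0.29 to 0.40, with counts summed per mouse at 0.37 and without the striatum sample of mouse 3 at 0.31. These calls used the unadjusted rule, and the call was lost where it was put on the edgeR adjusted p. That adjusted p was 0.131 in the main fit and 0.999975 with counts summed per mouse. DESeq2, also without a term for the mouse, gave 0.36 with an adjusted p of 0.0447. With limma voom and the mouse as a random effect it was 0.37 with an adjusted p of 0.398.

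**Figure D3:**
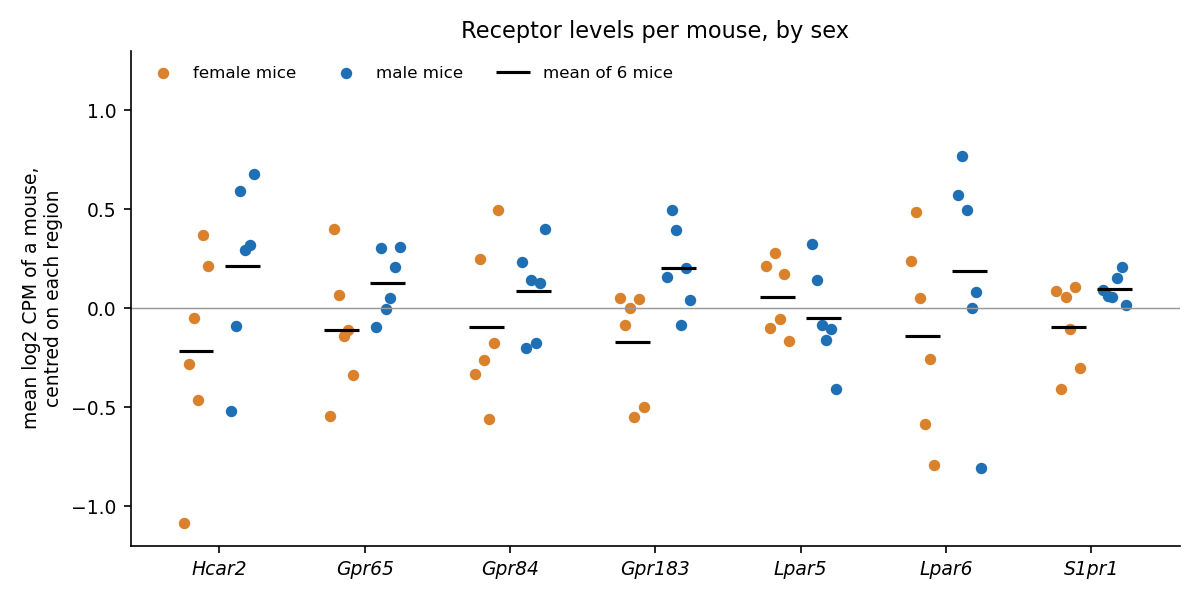
Mean log2 CPM of each mouse, centred on the mean of each region (y axis), for the 7 receptors (x axis), with 1 point per mouse coloured by sex and a black line at the mean of 6 mice. For Gpr183, 4 of 6 males lie above all females, and for Lpar6 and Hcar2 the mice of each sex are spread over more than 1 log2 unit.

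Hcar2 also met the unadjusted rule, with less support between mice. Male samples had 9.88, 36.1 and 105 CPM as lowest, median and highest, and female samples 6.82, 21.3 and 90.9 CPM, an almost full overlap that includes the region difference. The log2 fold change was 0.42 (SE 0.20, edgeR adjusted p = 0.590), and 2 of 6 males were above all females (exact permutation p = 0.160, two-sided). The call was lost without any of mice 2, 4, 5, 7, 8, 9 or 11 (0.28 to 0.41) and with counts summed per mouse (0.27). S1pr1 was higher in males by 0.18 (SE 0.073, edgeR adjusted p = 0.466), under the fold change of 1.2, with all 6 males above the female median (exact permutation p = 0.0736).

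The other members did not pass. Lpar6 was at 0.32 (SE 0.17, edgeR adjusted p = 0.691), Gpr65 at 0.19 (SE 0.14, adjusted p = 0.846), Gpr84 at 0.16 (SE 0.14, adjusted p = 0.903) and Lpar5 at -0.12 (SE 0.10, adjusted p = 0.901). Over mice the exact permutation p was 0.297 for Lpar6, 0.145 for Gpr65, 0.346 for Gpr84 and 0.437 for Lpar5. Single mice decided some of these: without mouse 4 Gpr65 was called at 0.32, without mouse 12 Gpr84 was called at 0.29, and without mouse 2, 4 or 11 Lpar6 was called at 0.38, 0.46 and 0.47. In the sets of mice, whose difference was not tested, Gpr65 was called in mice 7 to 12 alone at 0.40 and stood at -0.017 in mice 1 to 6 alone, and Lpar6 was called in mice 1 to 6 alone at 0.36. Under the unadjusted rule 2 of 7 members were higher in males, beside 2.66% of all genes, and 0 were lower, beside 1.48%. At an edgeR adjusted p under 0.05 it was 0 of 7, beside 0.283% of all genes. The median log2 fold change was 0.19 for the 7 and 0.0029 for all genes.

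Within regions, sex differences were few. In the midbrain 1 of 7 members was called, beside 4.84% of all genes. It was S1pr1, at 117 ± 17.1 CPM in males and 93.4 ± 21.2 in females (SD, n = 6 and 6), a log2 fold change of 0.33 (SE 0.12, edgeR adjusted p = 0.774) that lost its call without mouse 9 (0.26) or mouse 12 (0.24). In the striatum 2 were called, beside 2.28% of all genes: Hcar2 at 0.67 (SE 0.33) and Gpr183 at 0.41 (SE 0.17). Hcar2 lost that call without any of mice 2, 5, 6, 8, 9, 11 or 12 (0.52 to 0.69), and Gpr183 without mouse 3 (0.30) or mouse 8 (0.32). Without only the striatum sample of mouse 3, Gpr183 stood at 0.29 and was not called, and Hcar2 stood at 0.73 and was called. In the PFC 1 was called, beside 5.29% of all genes, namely Gpr183 at 0.39 (SE 0.18). That call was lost without any of mice 4, 5, 8, 9 or 11 (0.30 to 0.40), and Hcar2 at 0.67 (SE 0.34) gained one without mouse 1, 6, 10 or 12 (0.72 to 0.86). All adjusted p-values within regions were 0.770 or higher for these members. The test of whether a sex difference varied between regions called 0 of 7 members and 0 genes in all, 0% of the table, by edgeR at an adjusted p under 0.05, and 1 gene by DESeq2. At an unadjusted p under 0.05 it was 632 genes by edgeR and 489 by DESeq2, and the members' edgeR p-values ran from 0.174 for Gpr65 to 0.761 for Gpr183. The within-region calls therefore do not show that a sex difference was larger in some regions than in others.

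Samples of the same mouse resembled each other most for Lpar6. Within groups, the r of log2 CPM over the 34 same-mouse pairs was 0.84 for Lpar6, 0.49 for Hcar2, 0.35 for Gpr183, 0.31 for Gpr84 and S1pr1, 0.24 for Lpar5 and 0.14 for Gpr65. Lpar6 was also the member that differed most between the mice numbered 1 to 6 and those numbered 7 to 12, each set with 3 mice of either sex. What separates the sets is not given in the sources used here. Lpar6 stood at 98.9 ± 20.8 and 65.96 ± 20.7 CPM in the midbrain (SD, n = 6 and 6), 100.02 ± 22.4 and 58.5 ± 16.04 in the striatum (n = 6 and 6), and 147 ± 21.01 and 73.1 ± 21.9 in the PFC (n = 5 and 6). In the PFC the sets did not overlap, with 121 CPM as the lowest of mice 1 to 6 and 94.9 CPM as the highest of mice 7 to 12. The fitted PFC over midbrain difference was 0.61 (SE 0.12) in mice 1 to 6 and 0.16 (SE 0.21) in mice 7 to 12. The difference between the sets was not tested.

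**Figure D4:**
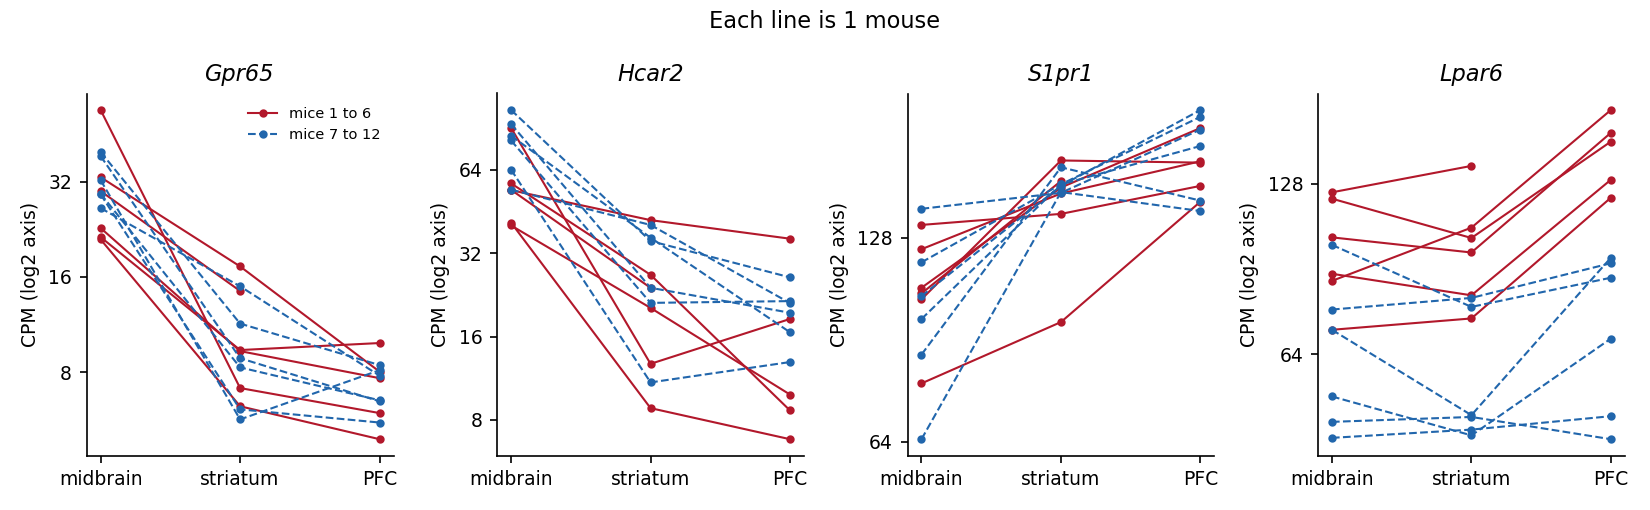
CPM on a log2 axis (y axis) in the midbrain, striatum and PFC (x axis) for Gpr65, Hcar2, S1pr1 and Lpar6, with 1 line per mouse, solid red for mice 1 to 6 and dashed blue for mice 7 to 12. Every line falls from the midbrain for Gpr65 and Hcar2 and rises for S1pr1, while the Lpar6 lines of the sets of mice separate most in the PFC, where they do not overlap.

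Other members moved less between the sets. The difference of mice 7 to 12 minus mice 1 to 6, in log2 CPM centred on the regions, was -0.83 for Lpar6, 0.47 for Hcar2, -0.31 for Gpr183 and -0.25 for Lpar5, and between -0.025 and 0.046 for Gpr65, Gpr84 and S1pr1. For the 3 members with the widest separation, the region differences are also given by set. Both sets are part of the samples on which the members were selected, so these values are a description and no replication. For PFC over midbrain, Gpr65 was at -2.06 and -2.20 in mice 1 to 6 and mice 7 to 12, Hcar2 at -1.88 and -2.06, and S1pr1 at 0.59 and 0.76. For striatum over midbrain the values were -1.51 and -1.87 for Gpr65, -1.42 and -1.55 for Hcar2, and 0.39 and 0.60 for S1pr1.

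The receptors were then compared with each other over the 35 samples, as a description, since samples of the same mouse and the same library share sources of variation. Hcar2 and Gpr65 had an r of 0.88 over all samples and 0.50 within groups. Also within groups, Gpr84 and S1pr1 ran opposite to each other with an r of -0.71, and Lpar5 went with S1pr1 at 0.58 and against Gpr84 at -0.52 and Hcar2 at -0.51. Hcar2 and Gpr84 had an r of 0.50, and Gpr183 and Lpar6 0.49. The microglial marker sum had an r of -0.50 with Gpr84, -0.46 with Hcar2, 0.49 with Lpar5, 0.44 with Lpar6 and 0.44 with S1pr1 on the same basis. Lpar6 also had an r of -0.55 with the astrocyte sum and -0.54 with the oligodendrocyte sum, and Lpar5 0.51 with the monocyte and neutrophil sum and 0.46 with the lymphocyte sum. The part of other cell types in these values was not tested.

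**Figure D5:**
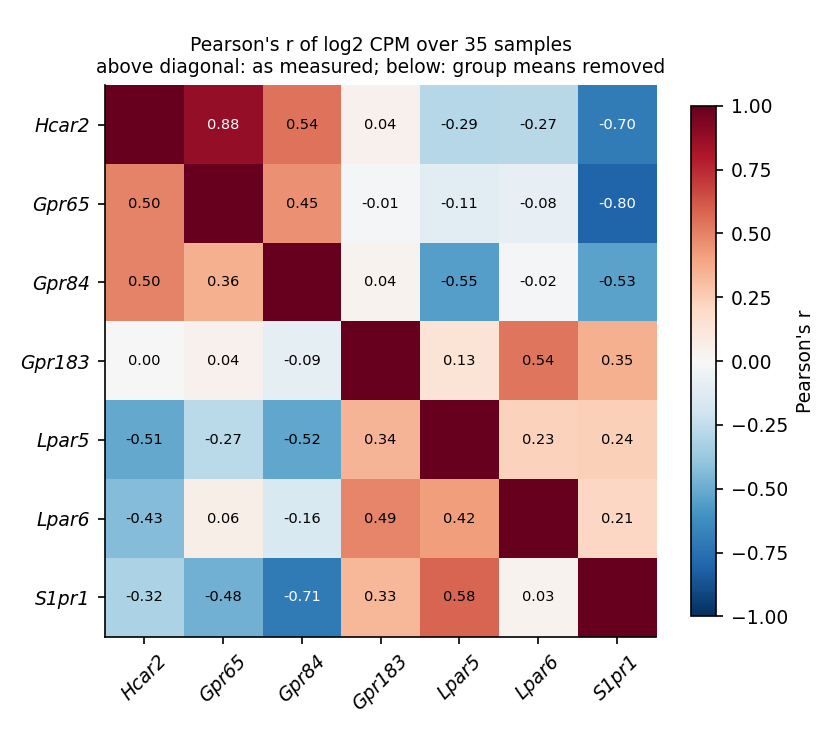
Pearson's r of log2 CPM between the 7 receptors (both axes) over 35 samples, as measured above the diagonal and with the mean of each region and sex removed below it, on a colour scale from -1 to 1. Below the diagonal Gpr84 with S1pr1, at -0.71, is the most negative pair and Lpar5 with S1pr1, at 0.58, the most positive.

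Among 8623 genes with a mean of at least 8 CPM, those whose log2 CPM was most like each receptor over the 35 samples were named by the highest r. For Hcar2 they were Pdcd1 (0.89), A730081D07Rik (0.89) and Ctsc (0.88), and for Gpr65 Pdcd1 (0.92), Ctsc (0.90) and Anxa5 (0.90). Pdcd1, which encodes the inhibitory receptor PD-1, averaged 23.7 CPM in the midbrain, 6.47 in the striatum and 5.04 in the PFC. Gpr84 was most like Rrad (0.83), Art3 (0.83) and Il1b (0.83), of which Il1b encodes interleukin-1 beta. Gpr183 was most like Zfp830 (0.70), Necap1 (0.67) and Lamtor1 (0.65), and S1pr1 most like the iron exporter gene Slc40a1 (0.77), Rab34 (0.76) and St6galnac4 (0.76). Lpar5 was most like Calhm2 (0.88), Adora3 (0.78) and Il10rb (0.76), and Lpar6 most like 5430427O19Rik (0.91), Ppp1r3b (0.83) and Chmp5 (0.83).

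With the mean of each region and sex removed, which leaves only variation within groups, the leading genes changed for most receptors. Hcar2 then went with Pfkfb3 (0.79), which encodes a regulator of glycolysis, Cxcl10 (0.78) and Csf1 (0.77). Gpr65 went with the prostaglandin receptor gene Ptger4 (0.66) and the antigen presentation genes Cd74 (0.65) and H2-Ab1 (0.62). Gpr84 went with Zc3h12a (0.81), Gadd45b (0.80) and Marcksl1 (0.80), Gpr183 with Calm3 (0.73), Klf2 (0.70) and Nipa2 (0.69), and S1pr1 with Stard5 (0.75), the interferon gamma receptor gene Ifngr1 (0.74) and Zfp652 (0.73). Lpar5 kept Calhm2 (0.86), followed by Tmem173 (0.83), which encodes STING, and Mut (0.78). Lpar6 kept 5430427O19Rik (0.92) and Chmp5 (0.88), with the transcription factor gene Cebpd (0.88) between them.

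Genes that surround these receptors, their relatives, the enzymes and carriers of their ligands, G protein alpha subunits and the proteins that desensitise them, were taken from 6 lists with 79 genes in the table. The lists were chosen with earlier results of these data known. Their calls and p-values, here and in the following paragraphs, therefore describe the fit and are no independent evidence. By the edgeR rule 3 of these 79 were higher and 12 lower for PFC over midbrain, 4 higher and 8 lower for striatum over midbrain, and 4 higher and 0 lower for striatum over PFC, beside shares of all genes of 2.75% higher and 3.24% lower, 3.5% and 2.98%, and 2.31% and 0.833% in the same order. The list medians of the log2 fold change for PFC over midbrain were 0.022 for related receptors, -0.19 for LPA and S1P metabolism, -0.40 for oxysterol enzymes, 0.12 for ketone and monocarboxylate metabolism, -0.013 for G protein alpha subunits and 0.050 for desensitisation, where all genes had 0.011. Named values are CPM means ± SD.

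Of 35 related receptors, 26 were in the table and 10 of them had a mean of at least 1 CPM. For PFC over midbrain 1 was higher and 3 lower, and the same numbers held for striatum over midbrain, with 0 between striatum and PFC. Gpr35, a receptor for kynurenic acid, measured 24.0 ± 4.77 CPM in the midbrain, 16.7 ± 4.18 in the striatum and 16.6 ± 3.28 in the PFC, with log2 fold changes of -0.53 (SE 0.13, edgeR adjusted p = 0.00740) for the PFC and -0.52 (SE 0.13, adjusted p = 0.00781) for the striatum over midbrain. Cnr2, the cannabinoid CB2 receptor gene, measured 29.1 ± 5.76, 22.9 ± 5.10 and 20.7 ± 1.71 CPM, with -0.47 (SE 0.10, edgeR adjusted p = 0.00197) and -0.34 (SE 0.099, adjusted p = 0.0286). The others that were called averaged under 1 CPM. The most abundant relative, Gpr34, a microglial receptor for lysophosphatidylserine, stood at 3236 ± 374, 3519 ± 401 and 3509 ± 518 CPM and was not called. The S1P receptor gene S1pr2 stood at 14.5 ± 3.22, 14.5 ± 2.09 and 16.3 ± 4.34 CPM, and the LPA receptor gene Lpar1 at 0.955 ± 0.788, 2.06 ± 1.73 and 0.966 ± 0.727 CPM, and neither was called.

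Of 13 genes of LPA and S1P metabolism, 1 was higher and 3 lower for PFC over midbrain, 2 higher and 2 lower for striatum over midbrain, and 2 higher for striatum over PFC. Spns2, the gene of an S1P exporter, fell from 16.3 ± 2.92 CPM in the midbrain to 10.98 ± 2.70 in the striatum and 10.4 ± 2.25 in the PFC, with log2 fold changes of -0.59 (SE 0.11, edgeR adjusted p = 7.999e-04) and -0.66 (SE 0.12, adjusted p = 1.74e-04). S1pr1 and the exporter gene thus went in opposite directions between the midbrain and the other regions. The lipid phosphate phosphatase genes Plpp1 (-0.40, SE 0.10, edgeR adjusted p = 0.00932) and Plpp2 (-0.32, SE 0.084, adjusted p = 0.0156) were lower in the PFC than in the midbrain. Plpp3, which astrocytes also express, was higher, at 10.9 ± 3.69 CPM in the midbrain, 23.1 ± 8.91 in the striatum and 17.9 ± 9.59 in the PFC. Enpp2, which encodes the LPA-producing enzyme autotaxin, known from choroid plexus and oligodendrocytes, measured 5.595 ± 4.999 CPM in the midbrain, 26.4 ± 34.8 in the striatum and 5.13 ± 3.86 in the PFC. Its striatum values were higher by 2.08 (SE 0.70, edgeR adjusted p = 0.0637) and 2.21 (SE 0.72, adjusted p = 0.162) and were called by the unadjusted rule for pairs only, with an SD above the mean. The oligodendrocyte marker sum was 489 ± 156 CPM in the striatum, 405 ± 63.1 in the midbrain and 340 ± 98.2 in the PFC, and its part in the Enpp2 values was not tested.

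For the oxysterol ligand of Gpr183, 2 of 4 enzyme genes were lower in the PFC and 1 in the striatum than in the midbrain. Ch25h, which makes 25-hydroxycholesterol, measured 2.76 ± 1.81 CPM in the midbrain, 0.780 ± 0.571 in the striatum and 0.645 ± 0.558 in the PFC, with log2 fold changes of -2.02 (SE 0.50, edgeR adjusted p = 0.00948) and -2.33 (SE 0.53, adjusted p = 0.00350). Cyp27a1 was lower in the PFC by -0.37 (SE 0.10, edgeR adjusted p = 0.0172). Cyp7b1 stood at 0.240 CPM over all samples and Hsd3b7 at 44.9 CPM, and neither was called. Beside them, the fitted differences of the receptor gene Gpr183 were 0.040 for striatum and 0.11 for PFC over midbrain.

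Of 8 genes of ketone and monocarboxylate metabolism, 1 was lower in both comparisons with the midbrain. It was Slc16a3, a lactate transporter gene, at 75.2 ± 11.2 CPM in the midbrain, 59.0 ± 9.71 in the striatum and 61.7 ± 9.53 in the PFC, with -0.30 (SE 0.080, edgeR adjusted p = 0.0133) for the PFC and -0.36 (SE 0.078, adjusted p = 0.00255) for the striatum. Oxct1, which encodes the enzyme that activates acetoacetate, had a region effect (edgeR adjusted p = 9.69e-04) and 279 ± 10.7, 288.5 ± 16.2 and 320.2 ± 19.2 CPM in midbrain, striatum and PFC, but no pair passed a fold change of 1.2.

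Of 13 G protein alpha genes, 1 was higher and 2 lower for PFC over midbrain, 1 was higher for striatum over midbrain, and 2 were higher for striatum over PFC. Gnas, which encodes Gs alpha, measured 407 ± 43.5 CPM in the midbrain, 377 ± 37.5 in the striatum and 284 ± 53.3 in the PFC, with -0.52 (SE 0.080, edgeR adjusted p = 1.75e-05) for PFC over midbrain and 0.41 (SE 0.079, adjusted p = 0.00761) for striatum over PFC. Gnao1, an abundant neuronal Go alpha gene, stood at 0.283 ± 0.208, 1.99 ± 0.799 and 1.58 ± 1.10 CPM, a rise of 2.47 and 2.82 over midbrain in PFC and striatum, beside a neuronal marker sum of 10.8 ± 2.00, 20.2 ± 4.36 and 29.3 ± 9.96 CPM. The part of neuronal RNA in it was not tested. Gnal fell by 0.26 on the log2 scale from midbrain to PFC (SE 0.088, edgeR adjusted p = 0.0646) and its striatum over PFC difference was 0.33 (SE 0.088, adjusted p = 0.0693). Gnai2 was the most abundant at 614 CPM and was not called. Of 15 genes that desensitise receptors, 1 was called, Rgs14, lower in the PFC by -0.43 (SE 0.10, edgeR adjusted p = 0.00495) and in the striatum by -0.44 (SE 0.099, adjusted p = 0.00362). Arrb2, the gene of beta-arrestin 2, stood at 145, 146 and 146 CPM across the regions and was not called.

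For sex, 2 of the 79 genes were higher and 2 lower in males by the unadjusted rule, beside 2.66% and 1.48% of all genes, so that these shares were near those of the whole table. Spns2 was higher in males, at 13.9 ± 3.04 CPM (SD, n = 17) against 11.4 ± 4.01 (n = 18), by 0.30 (SE 0.094, edgeR adjusted p = 0.203). Ch25h was higher by 0.92 (SE 0.42, edgeR adjusted p = 0.560), at 1.62 ± 1.01 CPM in males and 1.22 ± 1.85 in females, where the SD exceeded the difference. The lower genes, Lpar4 and S1pr3, averaged 0.0543 and 0.190 CPM. Within regions the same rule was also applied with each mouse left out in turn. It called 0 to 3 of the 79 genes in the midbrain, 1 to 2 in the striatum and 5 to 9 in the PFC. The shares of all genes, with all mice, were 4.84%, 2.28% and 5.29%. With all mice Spns2 was called higher in males in the striatum (0.41) and PFC (0.45), and Slc16a3 lower in males there (-0.37 and -0.29). In the striatum 1 of these 2 calls was lost without the sample of mouse 3. Of these sex differences, 0 passed an edgeR adjusted p of 0.05.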

How the data were processed

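Sorted microglia of 3 brain regions from 12 mice were measured by RNA-seq in 35 samples, with cDNA from the Smart-Seq HT kit and Nextera XT libraries. The table the authors deposited holds whole-number read counts for each Ensembl gene, not normalized, after FastQC, trimming with Trimmomatic, alignment to GRCm38 with HISAT2 and a filter on low expression; the tools are those of the submitters' processing notes. The counting tool, the annotation and the use of strand are not given in the sources used here. Genes that overlap others are therefore uncertain.

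Here all 21236 genes were fitted with edgeR 4.0.16 in R 4.3.3 (TMM factors, robust quasi-likelihood F-test), with region and sex as additive terms, and with a mean per region and sex for sex within a region and the interaction. P-values were adjusted by Benjamini-Hochberg over the whole table. A region effect or interaction was called at an adjusted p under 0.05, pairs of regions within that effect at p under 0.05 and a fold change over 1.2, and sex at p under 0.05 and that fold change, which are the study's cut-offs with p taken as unadjusted. TMM factors also entered CPM and log2 CPM, the latter with a prior count of 2. Sex was also tested over mice by exact permutation. The steps were tested on simulated data. Those data were drawn without a mouse effect, so they do not check how samples of the same mouse affect the sex test. Plots used Python 3.11.15 and matplotlib 3.10.9.

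Sample numbers in the titles were taken as mouse numbers, which pair the regions of an animal: over 12297 genes, samples of the same mouse correlated with a mean r of 0.22 (34 pairs) and of different mice with -0.043 (170 pairs), once group means were removed. Removing group means ties the second value to the first with the opposite sign. The value for different mice is therefore no independent baseline. Where the labels do not say that samples of a group are separate preparations, p-values measure the spread between these samples.

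The receptors, the marker and pathway lists and the tests were chosen with earlier results of these data known. Named are all 7 receptors, at most 4 genes per pathway list and comparison with the lowest p among called genes averaging 1 CPM or more, and the 3 genes most like each receptor; Gpr34, S1pr2, Lpar1, Cyp7b1, Hsd3b7, Gnai2, Arrb2, Lpar4 and S1pr3 were named after their values were seen. Promoter sequences are from RefSeq (GRCm38.p6). Alternatives were DESeq2 1.42.0 and its size factors in edgeR, filterByExpr, the mouse as a block, limma 3.58.1 voom with the mouse as a random effect, counts summed per mouse, adjusted p-values, sets of mice, marker covariates, and each mouse left out in turn.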

Additional observations from a re-analysis of the deposited data

Results flagged for a closer look

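In 7 of 42 groups of 5 or 6 samples (a receptor in a region and sex), the highest or lowest sample stood apart from the rest by Dixon's test at the 95% level, which chance does in about 1 in 20 groups. Gpr183 was lowest in the midbrain of female mouse 12, at 206 CPM against 379.5 for the nearest. Gpr65 was highest in the midbrain of female mouse 6, at 54.1 CPM against 33.1, and in the striatum of female mouse 4, at 17.3 CPM against 8.27. Gpr84 was highest in the PFC of female mouse 12, at 1198 CPM against 730.5. Lpar5 was highest in the striatum of female mouse 6, at 52.6 CPM against 37.5. S1pr1 was lowest in the striatum of female mouse 4, at 96.1 CPM against 149, and of male mouse 5, at 139 CPM against 149. Of the 7 values, 6 were from females and 4 from the striatum.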

How the results depend on the processing

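Of 714 values of single receptors under the alternatives, 11 had another sign than the main value, in 8 differences of which 0 were called. For sex these were Gpr65 in mice 1 to 6 alone (-0.017), Hcar2 within the midbrain (-0.24 to 0.041 with each mouse left out) and S1pr1 within the striatum (-0.054 to 0.082). For striatum over midbrain they were Gpr183 without mouse 3 (-0.0088), mouse 12 (-0.0082) or the striatum sample of mouse 3 (-0.017), and Lpar5 (-0.0013) and Lpar6 (0.0069) in mice 1 to 6 alone. For Gpr183 striatum over PFC was 0.021 in mice 1 to 6 alone, and for Lpar5 PFC over midbrain was 0.033 in mice 7 to 12 alone. For sex, 31 values lost a call and 12 gained one. The number of receptors called for region rose from 3 to 5 with the replicate block, and for striatum over PFC from 1 to 3 with the block and 2 with DESeq2, and fell to 0 with adjusted p-values; with each mouse left out it was 1 to 2. For sex it was 2, 1 to 3 with a mouse left out, 1 with counts summed per mouse, 1 with limma voom and the replicate block as a random effect, and 0 with edgeR adjusted p-values. Within regions, leaving out mice gave 0 to 1 in the midbrain, 0 to 4 in the striatum and 0 to 2 in the PFC. Within the striatum it was 1 with size factors of DESeq2 and 1 without the striatum sample of mouse 3, and within the PFC 2 with DESeq2; the cause was not tested. The block changed no other member count by over 1.5 times. Over all genes the block gave 2977 in place of 1888 with a region effect, 1738 of them shared. Depth limits no receptor here, since the lowest value of any was 4.90 CPM, but it limits listed genes under 1 CPM.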
